A study of Vitis vinifera with 171 samples.

Results

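Vineyard PSP is 1 of the 11 commercial vineyards around Verona whose berries were profiled in the 2008 season, and the 9 arrays of PSP from that year are compared here with the 90 arrays of the other 10 vineyards, out of 171 arrays in all. The arrays were chosen by their labels alone, as those of PSP in 2008, with 3 biological replicates (A, B and C) at each of veraison, mid-ripening and harvest. PSP lies at S. Pietro Incariano in the Valpolicella area. Its vines were Guyot-trained in rows that ran north to south. Of the vineyards set against it, BM, FA and MN also lie in Valpolicella, BA, CS, GIV and VM in Bardolino, and AM, CC and PM in Soave. Every vineyard grew the same genotype, clone 48 of the red grape Corvina (Vitis vinifera), and every array was hybridised with RNA from berry pericarp, the whole berry without its seeds. With 1 vineyard compared with 10, the site, management, berry ripeness and sample handling of PSP cannot be told apart. In whole pericarp, fewer cells of a type and less RNA per cell cannot be told apart either. AM, CS, MN and PSP were also sampled in 2006 and 2007.

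Grape berries pass from a hard green phase to ripening at veraison, when they soften, take up sugar and, in red varieties, build anthocyanin in the skin. Softening goes with the remodelling of cell wall polymers by enzymes such as expansins, pectinases and xyloglucan endotransglucosylase/hydrolases, while photosynthesis genes decline and pathogenesis-related proteins accumulate. Plants of 1 clone at different sites can pass through the same programme at different levels of stress, defence and secondary metabolism genes.

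The arrays reported the brightness of 117999 gene probes, as intensities that the authors had made comparable across all 171 arrays, and the probes were combined here into 29543 genes or gene fragments. All values below are log2 intensities, in which a difference of 1 is a factor of 2. They were compared within 1 gene only, since the brightness of different probes does not rank the abundance of their transcripts. Between 71.7% and 79.2% of the genes of a PSP array stood above the 95th percentile of the random probes on the same array, against 49.3% to 89.5% on the other arrays of 2008. The replicates of PSP correlated at 0.971 to 0.995 within a stage. Markers of the labelled tissue were strong in PSP at all 3 stages: the ripening protein grip22 (VIT_06s0004g02560) had means of 14.59, 13.96 and 13.76, and the expansin EXPA8 (VIT_13s0067g02930) of 15.23, 15.06 and 14.68. The 3 seed-related genes that could be named, 2 of them a dehydrin and a steroleosin that berries may also express, lay within the range of the other vineyards at every stage. All 6 arrays of PSP from veraison and mid-ripening shared 1 slide, which held no other array of veraison, so slide and vineyard cannot be told apart at that stage. At harvest, replicates A and B lay on a slide of their own and replicate C on a slide shared with an array of vineyard GIV.

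PSP stood at the edge of the set of vineyards for many genes early in ripening and for fewer genes later. At veraison its triplicate mean was above those of all 10 other vineyards for 4026 genes (13.6% of those tested) and below all of them for 4648 (15.7%). At mid-ripening it was above all for 3096 (10.5%) and below all for 4322 (14.6%), and at harvest above all for 1842 (6.23%) and below all for 2755 (9.33%). Counted the same way, PSP held the second place of the 11 vineyards at veraison, behind BM with 9393 genes outside the others, the third place at mid-ripening, behind BM and CC, and the seventh at harvest, when CC led with 8123. In both directions together PSP had 8674, 7418 and 4597 genes at the 3 stages, where the median of the other vineyards was 4225, 4341 and 5488. Some vineyard must be at each end for every gene, so such counts alone mark no signature. More genes of PSP lay below all others than above at each stage. Most of these differences were small, as the median absolute difference between PSP and the mean of the others was 0.32 at veraison, 0.25 at mid-ripening and 0.22 at harvest, and 8.29%, 3.17% and 2.36% of the genes differed by more than 2-fold.

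**Figure D1:**
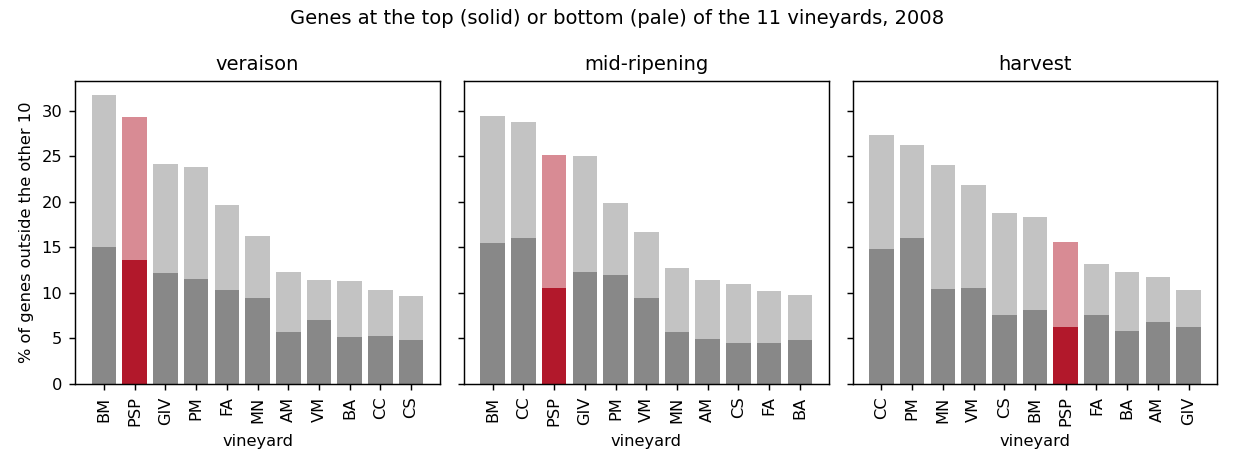
Share of the 29543 genes, in percent, for which the triplicate mean of a vineyard was above (solid) or below (pale) those of the other 10, for the 11 vineyards of 2008 at the 3 stages. PSP had 29.4% of genes at either end at veraison, 25.1% at mid-ripening and 15.6% at harvest.

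Over all genes, the profile of PSP was not the farthest from the others at any stage. The mean distance to the other vineyards, taken as 1 minus Pearson's r across genes, was 0.0345 at veraison, rank 3 of the 11 vineyards from the farthest (exact one-sided p from the rank 0.273, the smallest possible being 0.0909), 0.0218 at mid-ripening, rank 5 (exact p 0.455), and 0.0211 at harvest, rank 7 (exact p 0.636). The vineyards nearest to PSP were AM, FA and CC at veraison, CS, FA and MN at mid-ripening and CS, MN and BM at harvest. No vineyard was among the nearest 3 at all stages.

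The main test set the triplicate mean of PSP against the spread between the means of the other 10 vineyards (limma, Benjamini-Hochberg adjusted p below 0.05). It called 1 gene at veraison (0.00338% of 29543) and none at mid-ripening, at harvest, over the mean of the 3 stages, or for either step between stages. At an unadjusted p below 0.05 there were 2441 genes at veraison, 1830 at mid-ripening, 844 at harvest and 2575 over the stages, and 836 and 970 for the 2 steps. In simulated data of the same size this design found 16% of genes changed by 1 on the log2 scale and 74% of those changed by 2, so smaller differences of PSP were mostly out of its reach. A second test asked only whether PSP differed from these particular 10 vineyards by more than the spread between replicate arrays. It called 2974 genes higher (10.1%) and 3567 lower (12.1%) in PSP at veraison, 2770 (9.38%) and 3146 (10.6%) at mid-ripening, and 1685 (5.7%) and 2683 (9.08%) at harvest. Both directions together came to 22.1%, 20.0% and 14.8% of the genes, and to 45.1% over the stages. With the slide as a random block, these calls came to 4302 (14.6%), 1726 (5.84%) and 6385 (21.6%) in both directions, and 6740 (22.8%) over the stages. Of all genes, 6.3%, 2.55% and 8.96% were then called higher at the 3 stages and 8.26%, 3.29% and 12.7% lower. The estimated correlation within slides was 0.08 and 0.27 at veraison and mid-ripening but negative at harvest (-0.11), where the block raised the count. This second test takes 3 arrays of a vineyard as its replicates and says nothing about vineyards in general. It is given below as the single-array test.

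The gene called at veraison was a set of 4 probes with no gene name. Its values in PSP were 7.81, 7.57 and 7.51, against means of 4.72 to 5.52 with a median of 5.17 in the other vineyards. All 3 arrays of PSP were far above every other vineyard, with a difference of 2.46 from their mean (SE 0.26, adjusted p = 0.0196, limma). The call was lost, with 0 genes called, when any 1 of AM, BA, BM, CS or FA was left out. The probe set was also above all 10 at mid-ripening, with a difference of 1.63 that did not pass the test (adjusted p = 0.793), and lay within their range at harvest, with a difference of 0.82.

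Among the genes with a name and an informative annotation, none passed the test at veraison, and the 8 with the smallest p-values, 4 in each direction, are given here. Genes picked by a small p tend to lie outside the other vineyards, so that position is no separate support, here or at the later stages. Ranges given for the other vineyards are of their triplicate means, not of single arrays. The replicates were most alike in VIT_07s0005g01530, the proteolytic subunit of the ATP-dependent Clp protease that degrades proteins in plastids and mitochondria. Its values in PSP were 11.18, 11.22 and 11.22, against 11.86 to 12.17 with a median of 12.01 in the other vineyards. The 3 arrays of PSP were almost identical and below every other vineyard, with a mean difference of -0.81 (SE 0.19, adjusted p = 0.578 by limma over vineyards, 1.05e-05 by the single-array test). The aspartate-semialdehyde dehydrogenase gene VIT_01s0011g05860, of the pathway to lysine, threonine and methionine, had 11.71, 11.59 and 11.73 in PSP against 12.17 to 12.49 with a median of 12.28 elsewhere, a difference of -0.64 that was also past the single-array test (adjusted p = 0.000332). Its 3 arrays, too, were below every other vineyard mean. A 33 kDa secretory protein (VIT_07s0141g00930) differed by -1.10 and a Ser/Thr receptor-like kinase (VIT_16s0148g00290) by -0.82. The secretory protein was below the 95th percentile of the random probes in all 3 arrays of PSP.

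On the higher side at veraison, a tyrosine-specific protein phosphatase (VIT_04s0069g01110) had 10.74, 10.78 and 10.95 in PSP against 9.60 to 10.27 with a median of 9.82 in the others, a difference of 0.98 (SE 0.25, adjusted p = 0.582). An S-receptor protein kinase (VIT_19s0014g04040) had 10.50, 11.38 and 10.93 against 8.48 to 9.96 with a median of 9.25, a difference of 1.71 (SE 0.45, adjusted p = 0.582). In both, each array of PSP exceeded every other vineyard mean. FtsH protease 4 (VIT_00s0192g00120), a membrane-bound protease of organelles, was more uneven, with 7.06, 9.15 and 8.28 against 6.66 to 7.47 with a median of 6.90, and its lowest array fell inside the range of the others. The auxin-binding protein ABP19 (VIT_18s0086g00590), which had the smallest p on this side, rested on 1 array, with 5.08, 8.41 and 5.09 in PSP against 4.59 to 5.36 with a median of 5.01. Without that array PSP would sit inside the range of the other vineyards. With the slide as a random block, the single-array test no longer called 3 of these 8 genes, namely the secretory protein (adjusted p = 0.0604), FtsH protease 4 (0.0638) and ABP19 (0.0854).

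At mid-ripening PSP was above all 10 vineyards for each of the 4 named genes of the higher side. Methyl jasmonate esterase (VIT_00s0253g00160), which releases the hormone jasmonic acid from its methyl ester, had 7.68, 8.18 and 8.80 in PSP against 6.37 to 7.29 with a median of 6.66 in the others. All arrays of PSP lay above every other vineyard, with a difference of 1.49 (SE 0.32, adjusted p = 0.793; single-array adjusted p = 2.9e-05). CESA9 (VIT_14s0006g03090), a catalytic subunit of cellulose synthase, had 7.79, 7.63 and 7.92 against 6.14 to 7.09 with a median of 6.63, a difference of 1.13 (SE 0.30). A gene for replication factor A 1 (VIT_11s0065g00980), which binds single-stranded DNA, had 11.66, 11.81 and 11.98 against 10.55 to 11.30 with a median of 10.92, a difference of 0.89 (SE 0.24). The replicates of both were close to each other and clear of the other vineyards, and both were past the single-array test (adjusted p = 0.00339 and 6.43e-05), CESA9 not with the slide as a random block (0.0818). The fourth, the anaphase-promoting complex component APC1 (VIT_18s0075g00060), differed by 1.08 with replicates from 5.45 to 6.67. Its replicates A and B were below the 95th percentile of the random probes on their arrays.

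On the lower side at mid-ripening, the dUTPase gene (VIT_18s0001g12360), whose enzyme keeps uracil out of DNA, had 9.60, 9.65 and 9.37 against 10.15 to 10.93 with a median of 10.43, a difference of -0.93 (SE 0.25). An RNA recognition motif protein (VIT_13s0019g05210) had 10.81, 10.87 and 10.75 against 11.37 to 12.07 with a median of 11.78, a difference of -0.93 (SE 0.24). In both, each array of PSP was below every other vineyard mean. An import inner membrane translocase subunit of mitochondria (VIT_11s0016g03110) differed by -0.69 and a HAD superfamily hydrolase (VIT_05s0049g02350) by -0.72. The adjusted p over vineyards was 0.793 for all 8 genes named at mid-ripening, while all 8 passed the single-array test. With the slide as a random block, 3 of the 8 were no longer past it, namely CESA9, APC1 (adjusted p = 0.141) and the translocase subunit (0.0857).

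At harvest the largest difference among the 8 genes with the smallest p-values was in VIP3 (VIT_02s0025g03910), which in Arabidopsis belongs to a complex that travels with RNA polymerase, with 11.33, 11.33 and 10.21 against 9.31 to 10.29 with a median of 9.56. Replicates A and B stood well above every vineyard, while C, on another slide, lay inside their range, and the mean difference was 1.32 (SE 0.34, adjusted p = 1.00). Chlorophyllase 1 (VIT_07s0151g00210), which removes the phytol tail from chlorophyll, had 6.89, 5.65 and 5.99 against 4.93 to 5.53 with a median of 5.15, a difference of 1.03 (SE 0.21). Its 3 arrays were above all other means, but each was below the 95th percentile of its random probes. An F-box protein (VIT_09s0002g02020) differed by 0.82 and another replication factor A 1 gene (VIT_05s0077g02230) by 0.68.

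On the lower side at harvest, CNX3 (VIT_15s0046g00350), of the synthesis of the molybdenum cofactor, had 8.54, 8.57 and 8.63 in PSP against 9.27 to 10.02 with a median of 9.64 in the others. Its 3 arrays agreed across both slides and were below every vineyard, with a mean difference of -1.06 (SE 0.29, adjusted p = 1.00; single-array adjusted p = 4.63e-05). Poly(A) binding protein 8 (VIT_09s0002g07970), which coats the tails of messenger RNAs, had 8.17, 7.95 and 8.59 against 8.92 to 9.34 with a median of 9.21, a difference of -0.95 (SE 0.19). The beta subunit of the electron transfer flavoprotein (VIT_05s0049g00470), which passes electrons from mitochondrial dehydrogenases to the respiratory chain, had 10.65, 10.60 and 10.96 against 11.23 to 12.20 with a median of 11.77 (single-array adjusted p = 0.000264). In these, too, no array of PSP reached the lowest of the other vineyard means. A subtilisin protease (VIT_05s0124g00630) differed by -0.73.

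Averaged over the 3 stages, PSP was above all 10 vineyards for 3737 genes (12.6%) and below all for 4803 (16.3%). The named genes with the smallest p were a tRNA-Ala synthetase (VIT_16s0039g01350) at 1.46 (SE 0.38), a reticulon-like protein (VIT_07s0031g02730) at 1.12 (SE 0.27), VIP3 at 1.09 (SE 0.26) and a replication factor A 1 gene (VIT_13s0047g00870) at 0.66 (SE 0.15) on the higher side. On the lower side were an HSP20 chaperone (VIT_07s0151g00830) at -0.82 (SE 0.19), the mitochondrial translocase subunit at -0.65 (SE 0.16), the HAD hydrolase at -0.62 (SE 0.18) and BPC6 (VIT_18s0001g13730), a DNA-binding protein of GA-rich sequences, at -0.60 (SE 0.17). Each had an adjusted p of 0.55 over vineyards. Of the named genes of the higher side, 3 different ones were annotated as replication factor A 1, 1 each at mid-ripening, at harvest and over the stages. None of them passed the test over vineyards. How many genes carry this annotation, and on which side the others lay, was not counted, so the 3 are no result about this family.

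Of the gene families, the xyloglucan endotransglucosylase/hydrolases (XTHs), which cut and rejoin the xyloglucan chains that tie cellulose fibrils together, gave the largest median difference of PSP among the 32 lists and 3 stages, at harvest. Members of the lists could be named only from the study's datasets, several of them picked on these same arrays for differing between vineyards or stages. The shares of all genes set beside this and the other lists are thus not from a like set of genes. Of the 16 XTH genes, 9 were above all 10 other vineyards (56.2%, against 6.23% of all genes) and none below. The median difference was 1.01, against -0.03 over all genes, and the medians of the other vineyards, each set against the remaining 10, ran from -1.27 in PM to 0.69 in CS. Next after PSP came CS, BM (0.65) and MN (0.33), the 3 vineyards nearest to PSP over all genes at harvest. The study grouped these 3 and BA (0.08, rank 7) with PSP at harvest, as vineyards whose photosynthesis genes were still active. It read the grouping as a difference in the degree of ripening. The part of ripeness in the XTH difference was not tested. At veraison the median difference of PSP was 0.02 and at mid-ripening 0.20, with 1 and 2 of the 16 above all others (6.25% and 12.5%, against 13.6% and 10.5% of all genes). None of the 16 passed the test over vineyards at harvest (1 at an unadjusted p below 0.05), where the vineyards themselves differed widely, and 12 were called higher and none lower by the single-array test (5.7% and 9.08% of all genes), or 12 and 1 with the slide as a random block (8.96% and 12.7%).

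The member with the largest difference was VIT_11s0052g01200, with 12.32, 12.49 and 11.91 in PSP at harvest against 9.76 to 11.60 with a median of 10.73 in the other vineyards. Every array of PSP exceeded every other mean, with a difference of 1.53 (SE 0.60, adjusted p = 1.00; single-array adjusted p = 2.01e-05). VIT_11s0052g01340 had 10.90, 11.20 and 10.16 against 8.09 to 10.49 with a median of 9.65, so that replicate C reached only into the range of the others, with a difference of 1.39 (SE 0.71). VIT_11s0052g01310 had 12.19, 12.40 and 11.75 against 9.74 to 12.10 with a median of 11.04, a difference of 1.29 (SE 0.74; single-array adjusted p = 0.00760). Here too replicates A and B were above all the others and C was not. Of the 11 XTH genes that share the identifier stem VIT_11s0052g, 8 were above all others. Of the 5 with other identifiers, only VIT_00s0386g00050 was, at 8.20, 8.40 and 9.40 against 6.12 to 8.28 with a median of 7.32. Replicates B and C were above all the other means and A was not. The remaining 4 differed by -0.39 to 0.38. Probes of close relatives may cross-hybridise, which was not tested, so the 11 are not 11 separate observations.

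**Figure D2:**
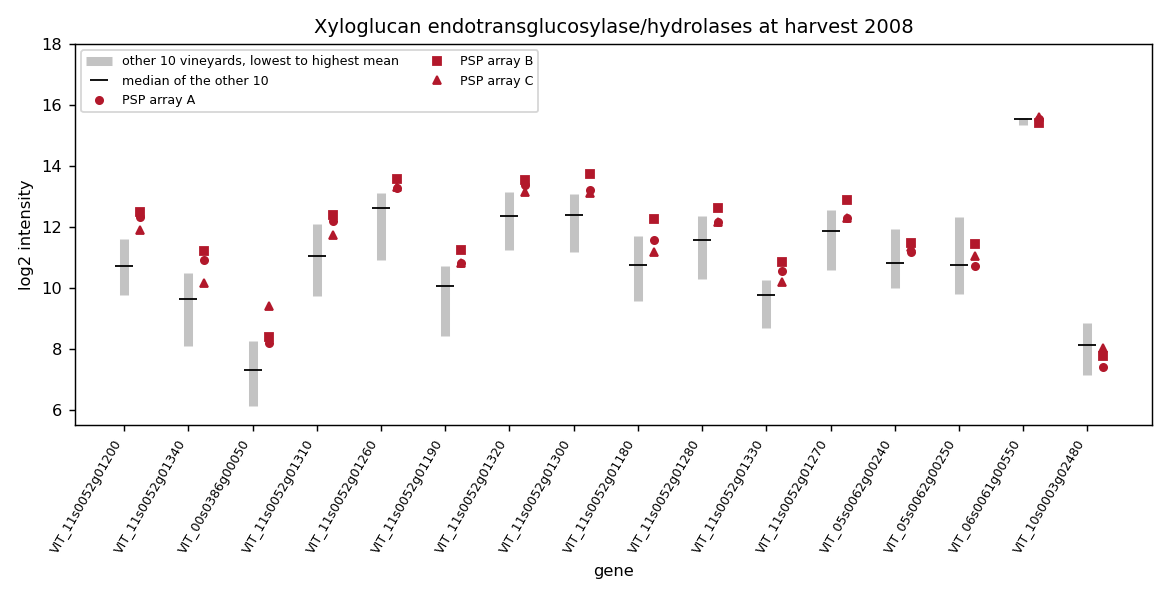
Log2 intensity of the 16 XTH genes at harvest 2008, with the 3 PSP arrays as red markers, the range of the 10 other vineyard means as a grey bar and their median as a dash. Replicate C, on another slide than A and B, is the lowest of the 3 in 6 of the 9 genes where the PSP mean is above the others.

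The slides moved with this result. Replicates A and B of harvest, which had a slide to themselves, were higher than C in 6 of these 9 genes, and with replicate C alone the median difference was 0.79 and 6 of 16 genes were above all others. Against the single GIV array on its own slide, replicate C was higher for 14 of 16 genes, by a median of 0.25. Leaving out any 1 replicate gave medians of 0.83 to 1.13 with 8 to 12 genes above all. The part of the slides in the difference was not tested beyond these values.

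Glutathione S-transferases (GSTs), which couple glutathione to toxic compounds and in grape also help to carry anthocyanins to the vacuole, had positive median differences in PSP at every stage. Of the 15 GST genes, 14 had a positive difference at veraison, 14 at mid-ripening and 12 at harvest, with medians of 0.46, 0.37 and 0.31. PSP had the highest median of the 11 vineyards at the first 2 stages and the second, after MN, at harvest. At veraison and mid-ripening 8 of the 15 were above all 10 others (53.3%, against 13.6% and 10.5% of all genes), 7 of them the same genes, and at harvest 5 (33.3%, against 6.23%). The largest difference was in VIT_00s0240g00050, annotated as GST 8, with 10.33, 11.47 and 11.02 in PSP at veraison against 7.84 to 10.36 with a median of 9.51. Replicate A lay just inside the range of the others, and the difference was 1.56 (SE 0.70, adjusted p = 0.598). VIT_19s0093g00310, also annotated as GST 8, was clearest at mid-ripening, with 12.54, 12.63 and 12.95 against 11.00 to 12.17 with a median of 11.83, a difference of 0.96 (SE 0.38, adjusted p = 0.793; single-array adjusted p = 0.00393). Its arrays were all above the rest. The single-array test called 3, 3 and 1 of the 15 higher at the 3 stages, against 10.1%, 9.38% and 5.7% of all genes, and none lower. With the slide as a random block it called 1, none and 5 higher (6.3%, 2.55% and 8.96% of all genes), and VIT_19s0093g00310 at mid-ripening was no longer past the test (adjusted p = 0.0928, limma).

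The general level of the arrays moved with the GST result. At veraison 77.4% of genes stood above the random probes in PSP, against 64.9% in GIV, 58.7% in PM and 67.9% in VM, while CS had 82.4%. GIV had the lowest GST median of all vineyards at veraison and mid-ripening, and VM at harvest. Without these 3 vineyards the median differences of PSP were 0.44, 0.26 and 0.14, and 8, 8 and 5 genes were above all the remaining ones (1 was below all at harvest). Within slides the medians were 0.09 against the CS array of mid-ripening and 0.04 against the GIV array of harvest. With replicate C alone at harvest, the median was 0.14 and no gene was above all others. The part of the signal level in the result was not tested further.

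Heat shock proteins and chaperones, which keep other proteins folded, had their highest median in PSP at mid-ripening. The median difference of the 70 genes was 0.24, above the medians of the other vineyards (-0.14 in AM to 0.13 in VM), and 16 were above all 10 others (22.9%, against 10.5% of all genes) and 3 below. The single-array test called 26 higher and 6 lower (9.38% and 10.6% of all genes), and with the slide as a random block 14 higher and 1 lower (2.55% and 3.29%). A class I small heat shock protein (VIT_13s0019g02930) had 13.10, 13.16 and 13.24 against 10.73 to 12.65 with a median of 11.83, a difference of 1.34 (SE 0.66, adjusted p = 0.793). HSP81-1 (VIT_02s0025g00280), of the HSP90 class, had 13.26, 13.04 and 13.43 against 9.85 to 13.34 with a median of 12.40, and a DnaK chaperone (VIT_07s0005g06650) 9.38, 9.61 and 9.70 against 7.55 to 9.04 with a median of 8.55. The first and the last of these were above all others in each array of PSP, while HSP81-1 was level with the highest vineyard. At veraison and harvest the list was close to the other vineyards, with medians of 0.03 and 0.06. Against the only mid-ripening array of another vineyard on the same slide, replicate C of CS, the 3 arrays of PSP had a median difference of 0.05 for this list.

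The cellulose synthases also had their highest median in PSP at mid-ripening, with a median difference of 0.52 over 9 genes, against medians of -0.26 to 0.16 in the other vineyards. The median difference was 0.335 without replicate A and 0.361 with an addition of 50 to the intensities. Of the 9, 3 were above all others (33.3%, against 10.5% of all genes). Beside CESA9, CESA3 (VIT_07s0005g02470) had 9.98, 9.85 and 10.09 against 8.71 to 9.53 with a median of 9.05, a difference of 0.86 (SE 0.32), with every array clear of the rest. At veraison the median of the same 9 genes was -0.35 and at harvest -0.09. Within the shared slide the difference from the CS array was 0.49.

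Ribosomal proteins were low in PSP at veraison. The median difference of 115 genes was -0.19, with 41 below all 10 vineyards (35.7%, against 15.7% of all genes) and 9 above, and 44 were called lower and 2 higher by the single-array test (12.1% and 10.1% of all genes), or 37 and 1 with the slide as a random block (8.26% and 6.3%). GIV had an equally low median of -0.19, and BM the highest, 0.46. The genes moved by different amounts, as ribosomal protein L2 (VIT_00s0873g00010) had 10.34, 8.95 and 10.60 against 10.84 to 12.64 with a median of 11.83, while S3 (VIT_05s0049g02280) had 9.65, 10.92 and 10.43 against 7.25 to 9.46 with a median of 8.84, the opposite side. By mid-ripening the median was -0.01.

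Among the MYB transcription factors, VvMYBA1 (VIT_02s0033g00440), the activator of the last step of anthocyanin synthesis in the berry skin, was above all 10 vineyards at each stage. At veraison it had 11.44, 12.24 and 12.04 in PSP against 8.22 to 10.96 with a median of 10.45, a difference of 1.90 (SE 0.81, adjusted p = 0.598). At mid-ripening it had 11.76, 11.69 and 11.98 against 9.92 to 11.44 with a median of 10.97, and at harvest 11.50, 11.83 and 11.23 against 8.64 to 11.46 with a median of 10.37. All arrays of PSP were above the other means at the first 2 stages, but at harvest the mean of 11.52 was close to the highest other vineyard and replicates A and B only were above it, while replicate C fell within the range. Of the anthocyanidin 3-O-glucosyltransferases, VIT_11s0052g01630 lay within the range of the other vineyards at all stages and VIT_12s0034g00080 was below all of them at veraison (-0.64). MYB24 (VIT_14s0066g01090) changed sides, with 8.92, 9.29 and 9.30 at veraison against 7.61 to 8.96 with a median of 8.57, and 9.26, 9.54 and 8.58 at harvest against 9.69 to 11.62 with a median of 10.83. Its mean was thus above all others at first (0.74), although replicate A was not, and below all of them by the end (-1.71, SE 0.61, single-array adjusted p = 0.000123). The 15 MYB genes as a list had a median of -0.35 at harvest, the lowest of the 11 vineyards.

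Of the 7 ABC transporters, which pump compounds across membranes, 3 were above all others at veraison (42.9%, against 13.6%). The pleiotropic drug resistance transporter VIT_09s0002g05490 had 8.42, 8.71 and 8.23 in PSP against 5.40 to 7.50 with a median of 5.91, a difference of 2.31 (SE 0.68, adjusted p = 0.582; single-array adjusted p = 0.00200). The multidrug resistance-associated genes VIT_10s0003g03470 at 0.99 and VIT_10s0003g03480 at 0.68 were above all others as well. At mid-ripening and harvest none of the 7 was above or below all others.

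Of the auxin genes, 2 were below all vineyards at harvest. The auxin transporter protein 2 gene (VIT_03s0038g02140) had 9.53, 9.43 and 9.67 against 10.32 to 11.73 with a median of 10.98, a difference of -1.47 (SE 0.51, single-array adjusted p = 0.000378), and the auxin-responsive SAUR12 (VIT_07s0031g02740) differed by -1.02. In a list of 29 genes these 2 are a share of 6.9%, against 9.33% of all genes, and the median of the list was -0.02. Pectin-modifying enzymes went both ways at harvest, with 5 of 20 above (25%, against 6.23%) and 3 below all others (15%, against 9.33%). A pectinesterase (VIT_06s0009g02630) had 9.36, 9.01 and 9.19 against 6.78 to 8.71 with a median of 7.67. Among the others were a polygalacturonase (VIT_04s0044g01420) at 0.84 and a pectate lyase (VIT_13s0019g04900) at -0.97.

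The ripening markers were chosen by the study on these same arrays and are therefore no independent evidence of a direction. The median difference of the 93 ripening-induced genes was -0.25 at veraison, 0.03 at mid-ripening and 0.04 at harvest, and that of the 44 ripening-repressed genes -0.30, 0.44 and -0.17. At mid-ripening 15 of the 44 repressed genes were called higher and 3 lower in PSP by the single-array test (9.38% and 10.6% of all genes), and 2 higher and 1 lower with the slide as a random block (2.55% and 3.29%). Compared within the slide with the CS array of mid-ripening, all 44 repressed genes were higher in PSP, by a median of 1.42, and 6 of the 93 induced genes were higher, with a median of -1.04 over the list. The 75 constitutive genes, chosen the same way, had a median of 0.05 at veraison and of 0.01 at harvest.

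Most of the pathogenesis-related, terpene synthase and stilbene synthase genes of PSP lay within the range of the other vineyards, as did most of all genes. The 24 pathogenesis-related genes had medians of -0.13, 0.29 and 0.29, the 7 terpene synthases of -0.77, 0.26 and 0.70, and the 3 stilbene synthases of 0.30, 0.47 and 0.63. Of these 34 genes, 5 were above all 10 vineyards at veraison, all of them pathogenesis-related, 1 at mid-ripening and 1 at harvest (13.6%, 10.5% and 6.23% of all genes), and 5, 2 and none were below all (15.7%, 14.6% and 9.33%). Within the slide, the medians at mid-ripening against the CS array had the opposite sign (-0.25, -2.31 and -1.76 for the pathogenesis-related, terpene and stilbene lists). CS itself had the highest terpene (2.78) and stilbene (2.22) synthase medians of the 11 vineyards at that stage, each vineyard set against the other 10. The parts of the slide and of vineyard CS in these signs were not tested. The terpene synthase median at veraison was the lowest of the 11 vineyards, with 2 of the 7 genes below all others. The PR10 gene VIT_05s0077g01530 had 13.27, 13.88 and 12.27 at harvest against 9.31 to 13.67 with a median of 11.97, and the PR1 gene VIT_03s0088g00710 13.93, 14.21 and 13.42 against 10.71 to 14.14 with a median of 13.30. PSP lay within the range of the other vineyards in both. Other lists tied to defence stood higher at harvest. The 32 disease resistance proteins had a median difference of 0.24 and the 57 receptor-like kinases of 0.30, each the highest of the 11 vineyards. Of these, 7 and 12 genes were above all others (6.23% of all genes), fewer than the 9 and 17 in MN.

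**Figure D3:**
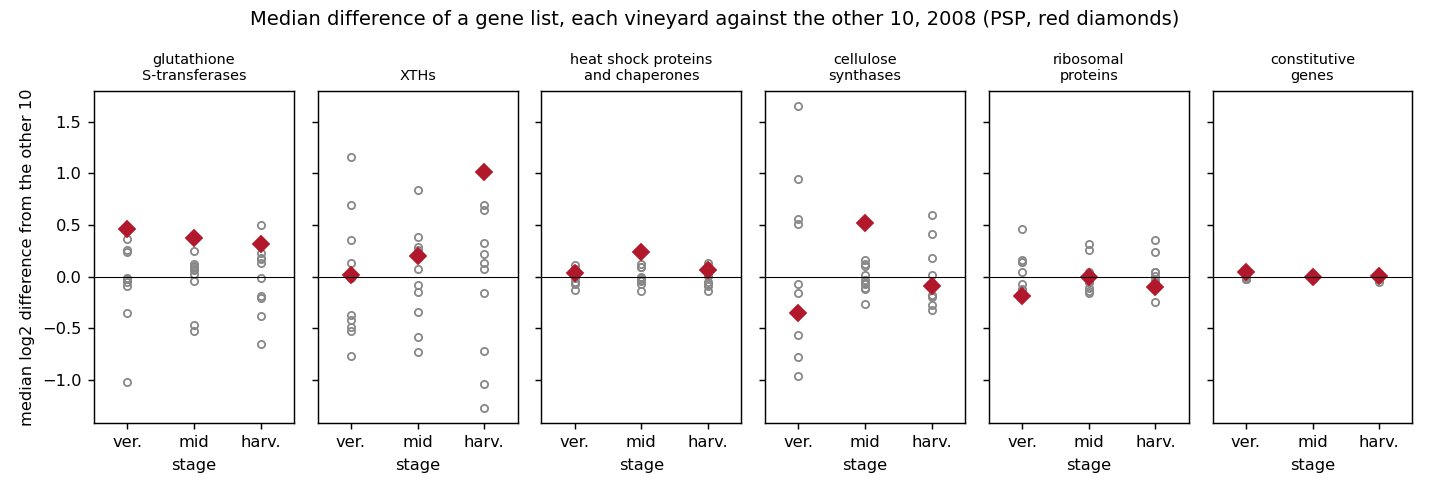
Median log2 difference of 6 gene lists for each vineyard against the other 10, at veraison, mid-ripening and harvest 2008, with PSP as red diamonds and the other vineyards as grey points. PSP is at the top for XTHs at harvest (1.01), GSTs at veraison (0.46) and heat shock proteins at mid-ripening (0.24), and near the bottom for ribosomal proteins at veraison (-0.19).

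The course of PSP itself was tested on its 9 arrays, stage against stage. From veraison to mid-ripening 4541 genes rose (15.4%) and 4371 fell (14.8%), and from mid-ripening to harvest 3977 rose (13.5%) and 4572 fell (15.5%). Across the other vineyards, tested the same way, the first step gave from 1 changed gene in AM to 11483 in BM. The second gave from 2177 in CC to 8218 in BM, fewer than the 8549 of PSP. These counts depend on the spread between the replicate arrays of each vineyard, so they do not rank vineyards by the size of the change. The mid-ripening and harvest arrays of PSP shared no slide, so stage and slide cannot be told apart in its second step. The second step gave 6470 in PSP with replicate C alone at harvest, from fewer arrays.

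The 6 named genes with the largest rises in the first step were 4 PR1 genes and 2 glucanases. The PR1 gene VIT_03s0088g00710, of the pathogenesis-related proteins secreted from the cell, had 6.94, 6.73 and 7.20 at veraison, 10.64, 13.16 and 12.70 at mid-ripening and 13.93, 14.21 and 13.42 at harvest. It rose 37.1-fold in the first step (5.21 on the log2 scale, SE 0.57, adjusted p = 0.000266, limma), and in the other vineyards the same step ran from 0.58 to 6.49 with a median of 3.62. A glucan endo-1,3-beta-glucosidase (VIT_06s0061g00100), which breaks down fungal walls and callose, rose by 5.14 (SE 0.64) and the beta-1,3-glucanase VIT_06s0061g00120 by 4.94 (SE 0.48). The PR1 genes VIT_03s0088g00780, VIT_03s0088g00810 and VIT_03s0088g00700 followed with 4.65, 4.31 and 4.25, the last of them no longer past the test without replicate C (adjusted p = 0.0536). The PR10 gene VIT_05s0077g01530 rose by 4.09 (SE 0.85, adjusted p = 0.00672). As a list, 12 of the 24 pathogenesis-related genes rose and 4 fell in the first step (15.4% and 14.8% of all genes), and 4 rose and 3 fell in the second (13.5% and 15.5%).

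Replicate A of mid-ripening stood apart in these genes. In it the median level of the pathogenesis-related list was 9.98, against 11.9 and 11.6 in B and C. The 7 terpene synthases had medians of 6.02, 10.8 and 9.29 and the stilbene synthases of 5.71, 7.85 and 7.35, where the 3 arrays of veraison had 5.52 to 6.01 for the terpene synthases. The ripening-repressed markers did not differ in that order, at 9.75, 9.69 and 9.97. All 3 arrays lay on 1 slide and correlated with each other at a mean of 0.988 to 0.992.

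The largest falls in the first step were seen in all 3 arrays. A family 1 glycosyl transferase (VIT_06s0004g05660) went from 14.45, 14.43 and 14.34 to 9.86, 9.62 and 9.74, a step of -4.67 (SE 0.11). Alpha-expansin 10 (VIT_06s0004g00070), which loosens the cell wall, went from 12.27, 12.34 and 12.48 to 7.81, 8.20 and 8.01 and then to 5.30, 5.39 and 5.79, where it was below all other vineyards. A cysteine protease inhibitor (VIT_18s0041g00390), a galactinol synthase (VIT_05s0077g00430), which starts the synthesis of raffinose sugars, and the GDSL lipases VIT_14s0128g00080 and VIT_05s0049g01990 fell too, with steps of -3.76, -3.58, -3.49 and -3.40.

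In the step from mid-ripening to harvest, 3 of the 6 largest rises were in germacrene D synthases, which make a sesquiterpene. The germacrene D synthase VIT_18s0001g04280 had 5.73, 5.12 and 5.76 at veraison, 5.59, 10.85 and 9.29 at mid-ripening and 12.75, 13.04 and 11.54 at harvest. Its rise by 3.87 (SE 1.13, adjusted p = 0.0333) was not past the test without any 1 replicate (adjusted p = 0.105, 0.0574 and 0.102 by limma without A, B and C). VIT_18s0001g05450 and VIT_18s0001g04480 rose by 3.36 and 3.34, or by 1.79 and 1.75 without replicate A (adjusted p = 0.0843 and 0.0796, limma). With 1 replicate left out, the first of these passed the test only without B (adjusted p = 0.0493, against 0.122 without C) and the second gene lost the call without any 1 replicate (0.0606 without B and 0.131 without C). Of the 7 terpene synthases, 5 rose in this step and none fell, where 13.5% of all genes rose and 15.5% fell. More evenly, a cysteine proteinase (VIT_17s0000g09770) went from 7.60, 7.77 and 7.52 to 11.14, 11.00 and 11.08, and a copper-binding protein (VIT_08s0040g00130) from 7.18, 7.23 and 6.69 to 9.98, 10.31 and 10.28. Their replicates stayed within narrow bands at both stages.

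The largest fall among the named genes was that of a proton-dependent oligopeptide transporter (VIT_17s0000g05550), which had 11.60, 11.11 and 11.49 at mid-ripening and 6.49, 6.24 and 6.86 at harvest. The step of -4.87 (SE 0.18, adjusted p = 1.16e-05, limma) was beyond that of each other vineyard, which ran from -4.13 to -2.27 with a median of -2.98, although the difference between them missed the test (adjusted p = 1.00, limma). The lateral organ boundaries genes VIT_15s0046g00240 and VIT_15s0046g00230, transcription factors of a plant-specific family, fell, with steps of -4.34 and -4.29. The malonyltransferases VIT_12s0134g00630 and VIT_12s0134g00590, annotated as acting on flavonol and anthocyanidin glucosides, had steps of -3.75 and -3.70, and a ceramidase (VIT_18s0001g00370) one of -3.29, all past the test.

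**Figure D4:**
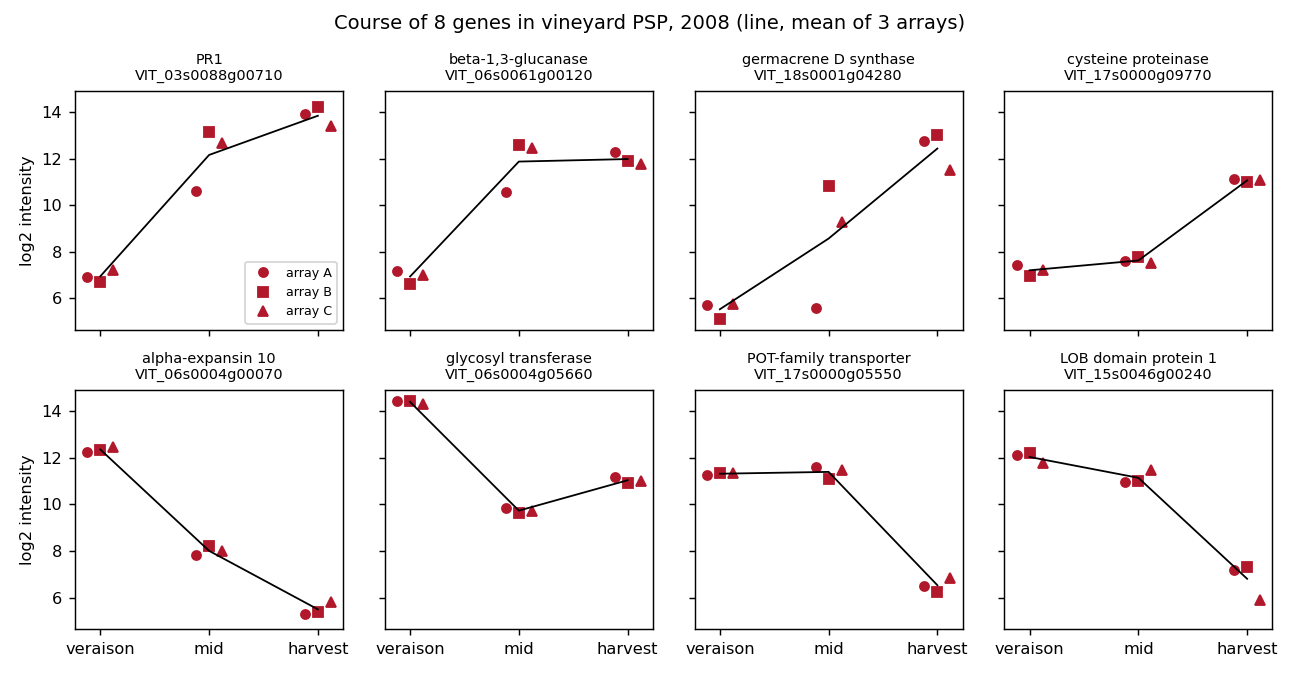
Log2 intensity of 8 genes in the 9 PSP arrays of 2008 (a marker for each of A, B and C) at veraison, mid-ripening and harvest, with a line through the means. Replicate A of mid-ripening is below B and C for the defence and terpene genes and level with them for the genes that fall.

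Set beside the lists that follow, 15.4% of all genes rose and 14.8% fell in the first step of PSP, and 13.5% rose and 15.5% fell in the second. Of the 16 XTH genes, 12 rose in the first step of PSP and 1 fell, with a median step of 2.87 (the medians of the other vineyards ran from 1.20 to 3.56), and then 1 rose and 3 fell. VIT_11s0052g01300, for instance, went from 9.01, 9.17 and 9.40 to 13.38, 13.37 and 12.76 and stayed at 13.21, 13.74 and 13.13. In the second step the XTH median of PSP was 0.16, where the median vineyard was at -0.29. Of the 70 heat shock and chaperone genes, 35 rose and 8 fell, and then 6 rose and 21 fell. HSP81-1 had 10.66, 10.69 and 9.79, then 13.26, 13.04 and 13.43, and then 10.16, 9.25 and 11.80, steps of 2.86 and -2.84, both past the test. A DnaJ chaperone (VIT_01s0011g04820) rose by 4.08 (SE 0.18), against a median of 3.92 in the other vineyards. Of 115 ribosomal protein genes, 16 rose in the first step, a share near that of all genes, and none fell, with a median step of 0.20 that was the highest of the 11 vineyards. Auxin genes had the lowest median of the vineyards in the first step (-0.16, 6 of 29 rose and 7 fell), and in the second 8 rose and none fell. The study's ripening-induced markers rose for 54 of 93 and then 67 of 93 genes (3 and none fell), and the ripening-repressed markers fell for 29 and then 43 of 44, counts that its choice of these genes on the same arrays makes no independent evidence.

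Set against the steps of the other vineyards, PSP was beyond all 10 for 4617 genes in the first step and 4827 in the second (7.41% above and 8.22% below all others, then 8.35% and 7.98%), ranks 7 and 6 of the 11 vineyards, and no difference passed the test. In the first step the GDSL lipases VIT_05s0049g01990 and VIT_14s0128g00080 changed by -3.40 and -3.49 in PSP, against -2.36 to -0.53 with a median of -1.47 and -2.99 to -0.97 with a median of -1.52 in the others. On the other side were a WEREWOLF-like MYB gene (VIT_17s0000g08480), with a step of 1.32 against -0.75 to 0.71 with a median of -0.22, and a divinyl protochlorophyllide reductase (VIT_05s0020g01840) of chlorophyll synthesis, with 2.16 against -1.11 to 0.96 with a median of 0.29. In the second step the ACT domain protein ACR8 (VIT_02s0025g05120) moved by 0.24 in PSP against -0.65 to -0.34 with a median of -0.47, the opposite sign to all other vineyards. CNX3 moved by -0.78 against -0.05 to 0.62 with a median of 0.10, and a kinesin (VIT_18s0001g07560), a motor protein of microtubules, by 1.21 against -0.72 to 0.59 with a median of -0.18.

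The same vineyard was also sampled in 2006 and 2007, when AM, CS and MN were the only other vineyards on the arrays. In each year PSP was set against these 3, and no gene passed the test over the mean of the stages (limma, smallest adjusted p 0.568 in 2006, 0.0561 in 2007 and 0.573 in 2008, with 1863, 3790 and 2427 genes at an unadjusted p below 0.05). The named genes of the 3 stages of 2008, 24 in all, lay on the same side of these vineyards for 5 in 2006 and for 10 in 2007, and outside all 3 in the same direction for 3 in each year. In 2006, 30.3% of all genes at veraison, 24.9% at mid-ripening and 24.1% at harvest were above all 3 in PSP, and 24.9%, 21.3% and 20.2% below all 3. In 2007 these shares were 29%, 22.5% and 27.2% above and 30.6%, 28.9% and 29.2% below. The vineyards AM, CS and MN of 2008 are also among the 10 above, so the 2 comparisons of 2008 share arrays. The arrays of PSP from 2006 and 2007 lay on slides with no other vineyard.

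The gene families differed from year to year, and these differences between years were not tested. XTH genes at harvest had a median difference of 0.59 in 2006, with 12 of 16 above all 3 vineyards, of -0.02 in 2007, with 1 of 16 (24.1% and 27.2% of all genes were above all 3), and of 0.87 against the same 3 vineyards in 2008, with 10 of 16 (21.6%). VIT_11s0052g01200 showed it gene by gene, with differences of 1.12 in 2006, -0.18 in 2007 and 1.66 in 2008. GSTs had medians of -0.04, -0.04 and -0.23 at the 3 stages of 2006, 0.56, 0.53 and 0.52 in 2007, and 0.57, 0.24 and 0.14 in 2008. Ribosomal proteins at veraison, low in 2008 (-0.15), had 0.16 in 2006 and 0.70 in 2007. Heat shock genes at mid-ripening had 0.01 in 2006, 0.38 in 2007 and 0.23 in 2008, and the small heat shock protein VIT_13s0019g02930 differed by 0.53, 2.08 and 1.52. VvMYBA1 (VIT_02s0033g00440) at veraison was level with the 3 vineyards in 2006 (-0.05) and above all of them in 2007 (1.78) and 2008 (1.91).

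**Figure D5:**
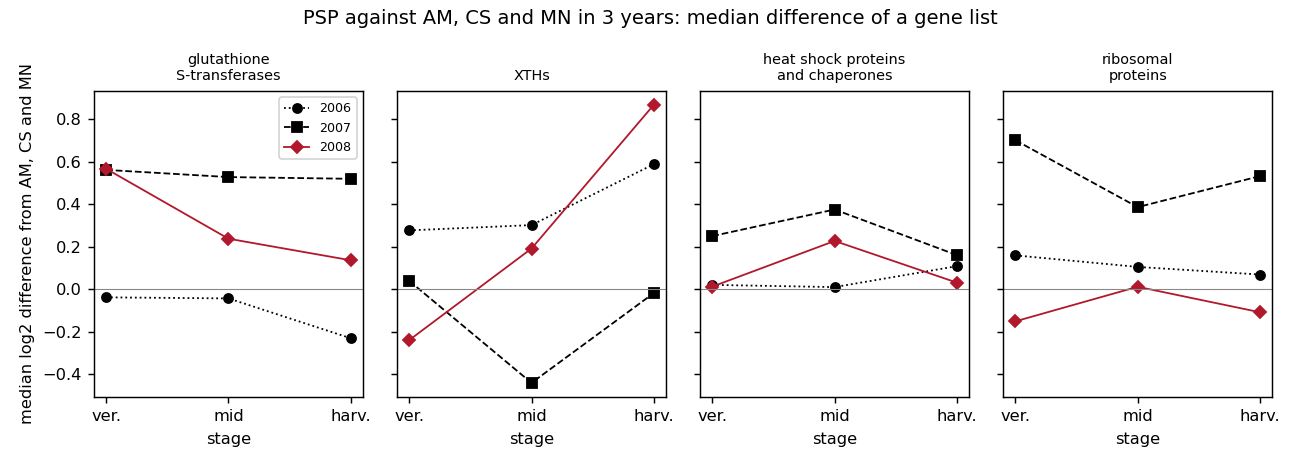
Median log2 difference of gene lists between PSP and the mean of AM, CS and MN at veraison, mid-ripening and harvest in 2006, 2007 and 2008 (red, 2008). XTHs at harvest were above 0 in 2006 and 2008 (0.59 and 0.87) and near it in 2007 (-0.02), and GSTs in 2007 and 2008 but not in 2006.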

How the data were processed

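RNA of berry pericarp was hybridised to 1-colour NimbleGen arrays of 117999 gene probes, 19605 random control probes and 1759 blank features. The deposited values are linear intensities per probe, quantile normalized over all 171 arrays by the authors, from 9.16 to 63131.31, and the submitters' processing notes name RMA. As single probes carry no gene name, adjacent probes with alike profiles were joined into 29543 probe sets of up to 4 probes (81 had fewer), with a median correlation of neighbouring probes of 0.568 within sets and 0.0271 between them. A gene's value is log2 of the mean probe intensity, with no offset and no filter on dim genes. Of the sets, 5403 were named from the study's supplementary datasets, 2695 of them with an informative annotation. The other sets entered every test without a name. Names came from matching profiles over the arrays to expression profiles in the datasets (r of at least 0.95). Ripening markers without such a match were named by the nearest stage averages, within 0.1 on the log2 scale and with a 3-fold lead. Of 205 ripening markers listed, 137 were matched by stage averages or by profile, and these are not split by rule here. In a check of the rule on stage averages, 21 names were right and 0 wrong. Beside the names and annotations, only the study's lists of ripening and constitutive genes were taken from those datasets. Several of the datasets hold genes that the study selected on these same arrays for differing between vineyards, stages or years. No genome or probe annotation was used here, so no sequence or coordinate is given.

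Groups were taken from the labels. The 3 arrays of a vineyard and stage were averaged, and limma 3.58.1 in R 4.3.3 compared PSP with the spread between the means of the other 10 vineyards, with Benjamini-Hochberg adjustment over all 29543 genes and a threshold of 0.05. The steps of PSP were tested with limma on its 9 arrays, and the single-array test used the 11 vineyards as groups. The labels call the arrays biological replicates of a vineyard, so p-values of these last 2 tests measure the spread within 1 vineyard. The named genes are those with the smallest p in each direction among informative annotations (4 per comparison where fewer passed the test), the 6 largest rises and falls of each step of PSP among genes past the test, the members of fixed lists, a PR10 gene and PR1 genes. The members and lists were chosen with earlier results of these data known. Other summaries of probes, quantile normalization of gene values, an addition of 50, a filter on dim genes, the slide or the replicate letter as a block, and leaving out arrays or vineyards were tried as alternatives. The alternatives without GIV, PM and VM, without harvest replicates A and B for the lists, and within shared slides were chosen after seeing the data. The methods were tested on simulated data of 29543 genes, where the comparison with 10 vineyards recovered 16%, 74%, 88% and 98% of genes changed by 1, 2, 3 and 4 on the log2 scale, and the steps of PSP 26%, 80%, 96% and 98%. The number of arrays limits the precision. Tables were handled with Python 3.11.15, numpy 2.4.6, pandas 2.3.3 and matplotlib 3.10.9.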

Additional observations from a re-analysis of the deposited data

Results flagged for a closer look

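Of 72 results tested for 1 vineyard far from the rest of the other 10, 2 were singled out, and chance alone flags about 1 in 20 groups. For chlorophyllase 1 (VIT_07s0151g00210) at harvest, vineyard GIV had 5.53 where the other 9 had 4.93 to 5.23, and PSP, at 6.18, was above GIV too. For CNX3 (VIT_15s0046g00350), the step from mid-ripening to harvest was 0.62 in vineyard AM and -0.05 to 0.29 in the other 9, while PSP, at -0.78, lay on the opposite side.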

How the results depend on the processing

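The probe summaries, scalings, tests and left-out replicates or vineyards changed no direction of the values compared. Against the single array of another vineyard on the same slide, the median took the opposite sign for 14 of 32 gene lists at mid-ripening and 8 of 32 at harvest. At mid-ripening these included the ripening-induced markers (0.03 against all 10 vineyards, -1.04 within the slide), the stilbene synthases (0.47 and -1.76), the terpene synthases (0.26 and -2.31), the pathogenesis-related proteins (0.29 and -0.25) and the XTHs (0.20 and -0.12), and at harvest the ripening-repressed markers (-0.17 and 0.46) and the heat shock proteins (0.06 and -0.05); the cause was not tested. With an addition of 50 the vineyard-level test called 2 genes at veraison, 1 at mid-ripening, 1 at harvest and 2 for the second step, and quantile normalization of gene values called 1 at mid-ripening. Leaving out 1 replicate of PSP or 1 other vineyard gave 0 to 3 calls at veraison, 0 to 4 at mid-ripening, 0 to 1 at harvest, 0 to 1 over the stages, 0 to 1 for the first step and 0 to 6 for the second. The single-array test called 6541, 5916 and 4368 genes at the 3 stages and 13327 over them, and with slide as a random block 4302, 1726, 6385 and 6740. By rank alone, PSP was outside all 10 for 8674, 7418, 4597 and 8540 genes, and for 4617 and 4827 in the 2 steps. The cause of these differences was not tested, other than that the tests take their error from different spreads. Without 1 replicate, the own steps of PSP gave 4559 to 5469 and 3118 to 5033 calls, from fewer arrays, and the second gave 6470 without harvest replicates A and B. The replicate letters gave no clear pairing of the samples: the deviations of same-letter arrays of PSP correlated at -0.269 to 0.515 (mean 0.0779, 4 of 9 pairs over 0.1). The mean for different letters was -0.0407, which is no separate reference, as the deviations of a group sum to 0. With the letter as a replicate block, the single-array counts were 6167, 5688, 4099 and 13262 and those of the own steps 8439 and 7840. Of 955 alternatives for named genes against the other vineyards, 865 stayed on their side of the threshold and 90 passed it. The 90 include calls by the single-array tests, which take their error from the spread between replicate arrays, not between vineyards. Of 228 alternatives for genes of the own steps, 16 lost the call. Of 170 for list medians, 14 moved by more than the spread between arrays. Genes near the level of the random probes have compressed differences.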
